A study of Homo sapiens with 22 samples.

Results

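β-catenin was depleted in BRCA2-deficient cells that had received no GSK3 inhibitor, and the transcripts that changed were read by RNA-seq. The comparison took 6 of the 22 libraries of the series, 3 transfected with an siRNA that targets CTNNB1, which encodes β-catenin (here siβ-catenin), and 3 transfected with a non-targeting control siRNA, and it covered every gene in the count table. The libraries were taken by their titles. All 6 came from H1299, a line from a human non-small cell lung carcinoma that carries a doxycycline (DOX)-inducible shRNA against BRCA2. The cells were grown with 2 µg/mL DOX for 3 days, so BRCA2 was depleted in both groups, and the siRNA was added a day after DOX. Neither group received LY2090314, the GSK3 inhibitor (GSK3i) used elsewhere in the series. The comparison asks which transcripts depend on the β-catenin that is present at its basal level in cells short of BRCA2. The study's methods name 1 siRNA sequence against β-catenin, so its off-target effects cannot be told apart from loss of β-catenin. Both groups were made from 1 cell line with 1 BRCA2 shRNA, and no DOX-treated culture without the shRNA was analysed here, so effects of DOX and of BRCA2 depletion cannot be told apart.

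β-catenin has separate roles at the membrane and in the nucleus. At adherens junctions it links the tails of cadherins to α-catenin and so to actin. In the cytosol GSK3 and its partners AXIN and APC mark it for destruction. When WNT ligands or a GSK3 inhibitor stop that step, it accumulates, enters the nucleus and drives transcription with the TCF/LEF factors, which raises feedback genes such as AXIN2, SP5 and LEF1. γ-catenin (plakoglobin, gene JUP) is its closest relative and sits in desmosomes as well as adherens junctions. BRCA2 acts in the repair of broken DNA and in the protection of stalled forks, and cells without it replicate their DNA under stress.

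The 3 control siRNA libraries held 18.9, 20.9 and 21.6 M counts and the 3 siβ-catenin libraries 26.6, 25.7 and 27.0 M, so the ranges did not overlap. Across the series totals ran from 18.9 to 29.3 M. Genes encoded by mitochondrial DNA took 1.88%, 0.813% and 1.77% of the counts in the controls and 1.28%, 1.56% and 1.89% after siβ-catenin. The keratins KRT8 and KRT18, markers of epithelial carcinoma, averaged 6717 and 10478 normalised counts in the controls, but EPCAM averaged 12.4 and CDH1 was too low to be tested. Of the markers of other cell types, 0 of 4 leukocyte, 1 of 3 endothelial and 3 of 4 fibroblast genes in the table passed the filter on low counts, and 0 of these 4 were called by DESeq2. PTPRC and LUM had no counts in the controls. Counts also depended on the GC content of the transcript, to a different degree in each library. In the highest of 20 GC bins, control replicates 1, 2 and 3 deviated from the mean of the 6 libraries by 0.13, -0.15 and -0.28 on the log2 scale, and siβ-catenin replicates 1, 2 and 3 by 0.18, -0.02 and 0.15. The median GC content was 59.2% in genes called higher, 42.3% in genes called lower and 47.6% in all genes tested. What GC content contributes to a single gene was not tested beyond the fit with GC offsets given below.

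**Figure D1:**
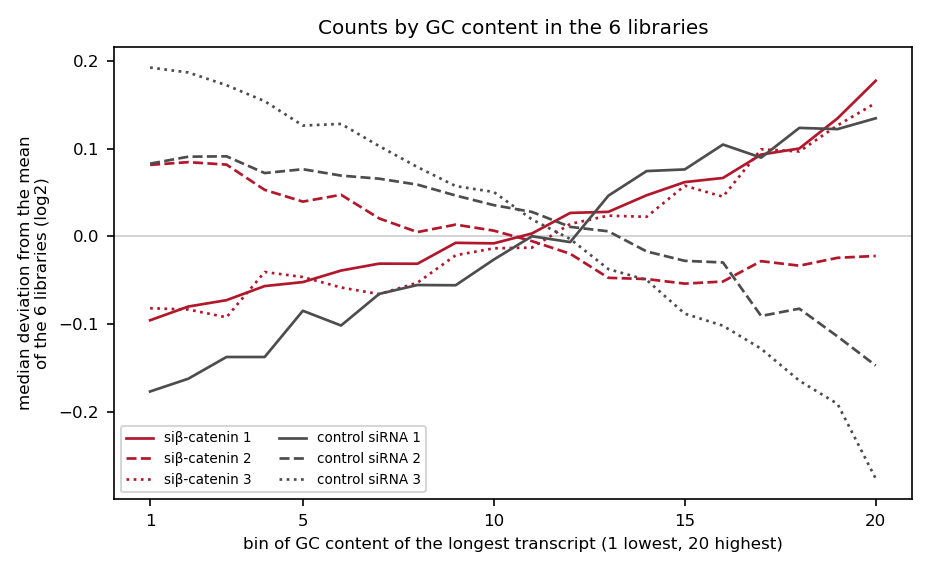
Median deviation of each library from the mean of the 6 libraries (y axis, log2 scale) over 20 equal bins of genes ordered by the GC content of their longest transcript (x axis, bin number), with control siRNA in grey and siβ-catenin in red. Control replicates 2 and 3 and siβ-catenin replicate 2 fall with GC content, and the other 3 libraries rise, so the trend splits both groups.

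CTNNB1 (ENSG00000168036, GRCh37 chromosome 3, 41236232 to 41301587) had 6317, 8669 and 7840 normalised counts in control replicates 1, 2 and 3 and 2217, 1874 and 1140 after siβ-catenin. The groups did not overlap, and the level fell by 2.12 ± 0.23 on the log2 scale (SE, adjusted p = 7.35e-16), which left 22.9% of the transcript. The siRNA therefore lowered its target in all 3 libraries labelled with it. BRCA2, the target of the shRNA, had 71, 116 and 179 normalised counts in the controls and 87, 109 and 100 after siβ-catenin, and it did not differ (log2 fold change -0.31 ± 0.32, adjusted p = 0.755). BRCA2-proficient controls without GSK3i had 695 and 847. The 2 genes of the GSK3 kinase were level, with -0.00 ± 0.16 for GSK3A and 0.09 ± 0.20 for GSK3B.

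**Figure D2:**
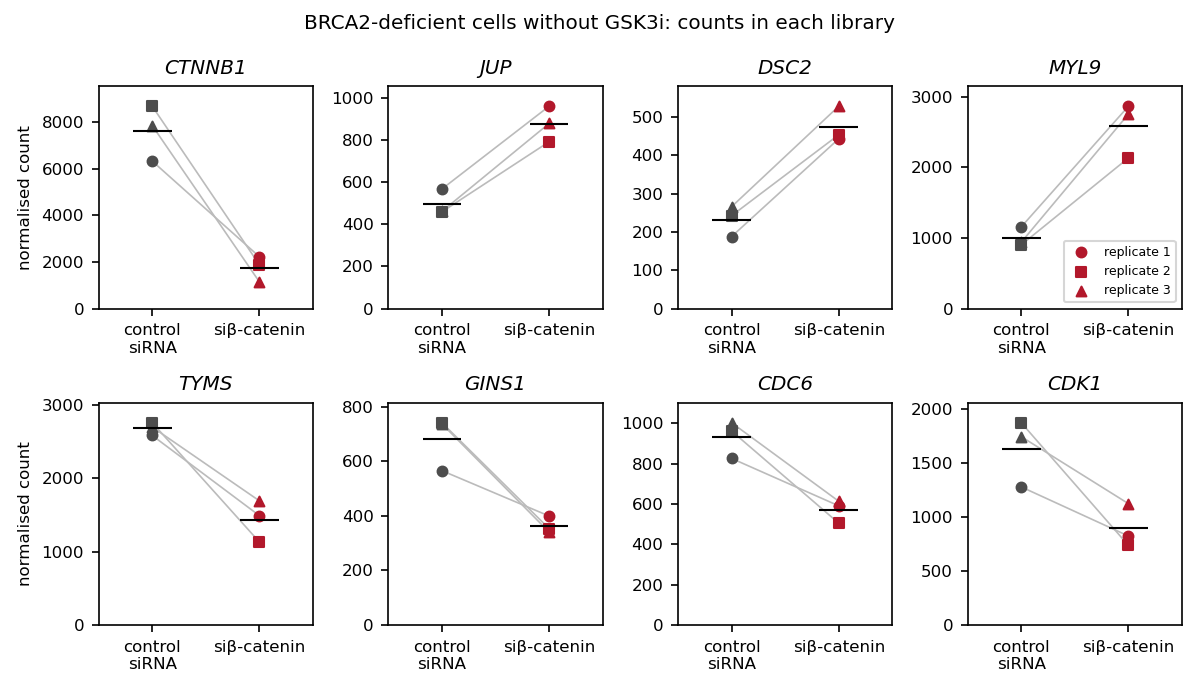
Normalised counts (y axis, linear scale from 0) of 8 genes in the 3 control siRNA libraries (grey) and the 3 siβ-catenin libraries (red) of BRCA2-deficient cells without GSK3i. Symbols mark the replicate number, grey lines join libraries of the same number and black bars are means. In each of the 8 genes the groups do not overlap.

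Of 17324 genes tested, 202 were called higher (1.17%) and 145 lower (0.837%) after siβ-catenin, with a call defined as an adjusted p below 0.05 in DESeq2 and a log2 fold change beyond 0.5 in either direction. The median log2 fold change over all tested genes was 0.01. Most changes were modest. A fold above 2 was fitted for 74 of the higher and 17 of the lower genes. Without regard to the test, the 3 values of one group lay wholly above those of the other in the higher direction for 9.80% of tested genes and in the lower direction for 9.35%. The replicate numbers paired the libraries, and with the number as a block the counts were 266 higher (1.54%) and 268 lower (1.55%), of which 320 genes were also called, in the same direction, without it. With offsets for GC content 197 genes were higher and 181 lower, and 279 of the 347 calls were kept. Counts thinned to the smallest library gave 187 higher and 127 lower.

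The number of calls depended strongly on the tool and on single libraries. edgeR's quasi-likelihood test called 0 genes at an adjusted p below 0.05, with 2311 genes at an unadjusted p under 0.05 and a lowest adjusted p of 0.0511. With the replicate block added it called 103 higher and 78 lower, and 160 of these were DESeq2 calls without the block. Without siβ-catenin replicate 1 DESeq2 called 101 genes, and without control replicate 2 it called 77. Without siβ-catenin replicate 3 it called 200. Without control replicate 1 it called 536, and without control replicate 3 it called 509. Of the 347 calls, 52 were made in every one of these 6 fits. In the text that follows a gene is said to change only where it was called in the fit of all 6 libraries.

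**Figure D3:**
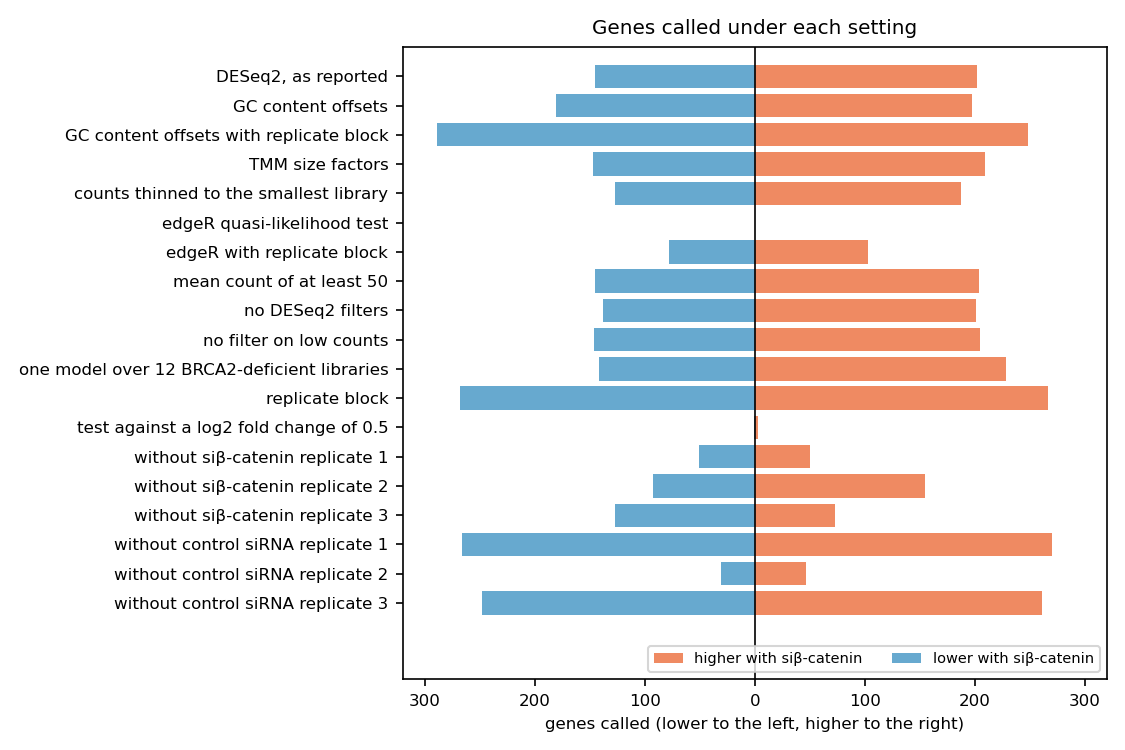
Number of genes called higher (orange, to the right) and lower (blue, to the left) after siβ-catenin in BRCA2-deficient cells without GSK3i under each setting (y axis). edgeR without a block called 0 genes, and the test against a log2 fold change of 0.5 called 4. The fits that leave out 1 library ran from 77 to 536 genes.

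Canonical WNT target genes came first, because they are the known read-out of nuclear β-catenin. Of 16 tested, 0 were called in either direction by DESeq2, and the median log2 fold change was 0.14. AXIN2, which scaffolds the destruction complex, had 60, 64 and 63 normalised counts in the controls and 95, 97 and 81 after siβ-catenin. SP5, a repressor in the same feedback, had 144, 138 and 100 against 213, 153 and 174. Both genes were thus low in the controls, and their groups did not overlap, with the higher values after siβ-catenin. The log2 fold changes were 0.55 ± 0.25 (adjusted p = 0.287) and 0.51 ± 0.23 (adjusted p = 0.277). LEF1 and TCF7, the TCF/LEF factors that are themselves targets, gave 0.41 ± 0.36 and -0.02 ± 0.21, and SOX4 gave -0.23 ± 0.15.

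Among these targets CCND1, the gene of cyclin D1, had the lowest log2 fold change, -0.54 ± 0.19 (adjusted p = 0.0956). Its 5329, 5227 and 6546 normalised counts in the controls all lay above the 4637, 3998 and 3100 after siβ-catenin. With the replicate block it was called lower (-0.55, adjusted p = 0.0464). DKK1, a secreted inhibitor of WNT receptors, was called higher with the block (0.77, adjusted p = 0.00427) but not without it (0.75 ± 0.27, adjusted p = 0.125), and its groups overlapped. Both were also called without control replicate 1, at adjusted p = 0.0425 for CCND1 and 0.000234 for DKK1. DKK1 was called without siβ-catenin replicate 2 as well, at adjusted p = 0.0459.

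Of 39 tested components of the pathway (receptors, the destruction complex, TCF/LEF cofactors), 0 were called by DESeq2 and the median log2 fold change was 0.12. The co-receptor LRP5 had an adjusted p of 0.0478, but its log2 fold change of 0.46 ± 0.14 was below 0.5 and so it was not called. It had 860, 808 and 854 normalised counts in the controls and 1241, 1107 and 1117 after siβ-catenin. TCF7L1 (0.47 ± 0.18) and DVL3 (0.38 ± 0.16) were also higher in all 3 siβ-catenin libraries than in any control, with adjusted p of 0.16 and 0.221.

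The same targets were read in BRCA2-deficient cells that did receive GSK3i, in 6 other libraries (3 control siRNA, 3 siβ-catenin). There 11 of 16 were lower with siβ-catenin, against 2.54% of all 17025 genes tested, and the median log2 fold change was -1.14. AXIN2 stood at 1231 to 1747 normalised counts with GSK3i and control siRNA and at 117 to 227 with GSK3i and siβ-catenin, so it fell by 3.10 ± 0.26 on the log2 scale. The response to siβ-catenin differed between cells with and without GSK3i for 6 of the 16, by the interaction of siRNA and GSK3i, which called 0.447% of all 18117 genes tested. The differences of log2 fold changes (with GSK3i minus without) were -3.65 for AXIN2 (adjusted p = 2.63e-22), -2.62 for LEF1 (adjusted p = 1.98e-06), -2.13 for SP5 (adjusted p = 2.13e-08), -1.74 for SOX4 (adjusted p = 8.31e-15), -1.57 for TCF7 (adjusted p = 6.67e-06) and -1.25 for BMP4 (adjusted p = 0.00867). The first 5 were also called by edgeR, with the block and without each of the 12 libraries in turn. BMP4 was called with the block (-1.23) and not by edgeR (adjusted p = 0.204).

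The promoter of SP5 is shown because it held the TCF/LEF letters more than once. In the RefSeq promoter sequences (build GRCh38.p14, 250 bases before to 50 after the start, both strands searched), the TCF/LEF letters CTTTGAT or CTTTGAA stood 3 times in SP5, at chr2:170715087-170715386 (+ strand), shown in capitals, and in 6.98% of 27305 promoters. They stood in 2 of the 10 WNT target promoters found in the table, and in neither JUP nor DSC2.
SP5: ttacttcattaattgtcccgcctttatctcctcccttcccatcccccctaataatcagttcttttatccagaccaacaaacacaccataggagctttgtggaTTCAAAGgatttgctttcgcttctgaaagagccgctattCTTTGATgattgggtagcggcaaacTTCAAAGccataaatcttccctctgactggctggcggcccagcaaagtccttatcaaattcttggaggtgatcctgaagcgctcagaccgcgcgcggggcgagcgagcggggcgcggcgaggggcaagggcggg

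**Figure D4:**
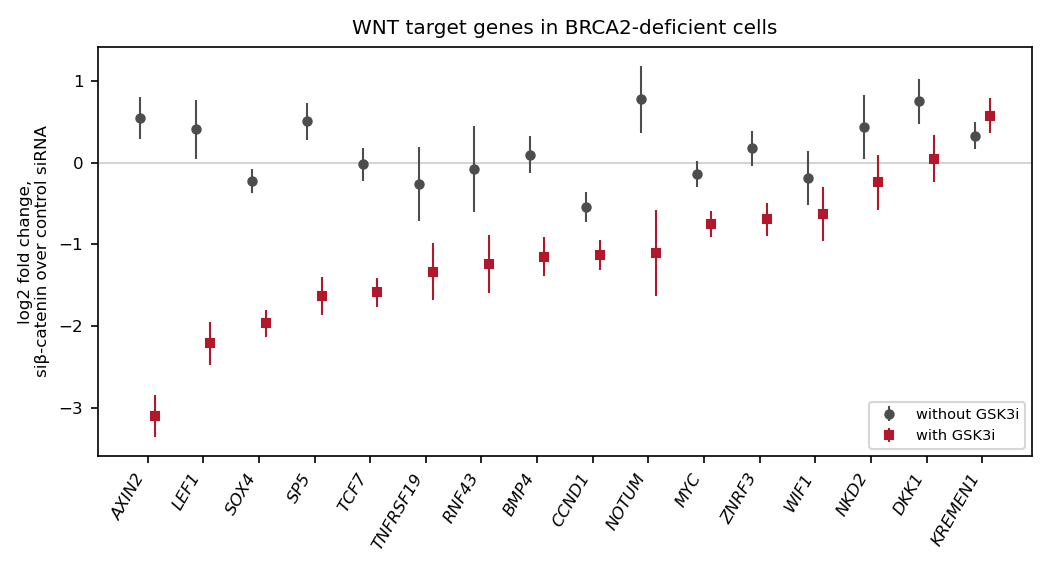
Log2 fold change of siβ-catenin over control siRNA (y axis; bars are SE) for the 16 WNT target genes tested (x axis) in BRCA2-deficient cells without GSK3i (grey circles) and with GSK3i (red squares), 3 libraries per group. Without GSK3i the values lie between -0.54 and 0.78, and with GSK3i AXIN2 reaches -3.10.

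Among junction genes JUP and DSC2 rose. Of 21 tested catenins, cadherins, desmosomal proteins and plakins other than CTNNB1, 2 were called higher and 0 lower. Over all genes 1.17% were called higher, and the list median log2 fold change was 0.23. JUP (GRCh37 chromosome 17, 39910856 to 39943183) had 566, 458 and 460 normalised counts in the controls and 959, 790 and 877 after siβ-catenin. The groups were well apart, and the log2 fold change was 0.83 ± 0.17 (adjusted p = 0.00027). DSC2 (chromosome 18, 28638806 to 28682485), a desmosomal cadherin whose tail binds plakoglobin, had 188, 243 and 266 against 444, 454 and 529. It rose by 1.04 ± 0.20 on the log2 scale (adjusted p = 8.91e-05), with every siβ-catenin library above every control. DSC2 was called without any single library and with GC offsets (1.12), whereas JUP missed the threshold without siβ-catenin replicate 1 (0.77, adjusted p = 0.0503). With GC offsets JUP was called at 0.69.

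Other junction genes did not pass. DSP, the desmosomal plakin, had 1090, 1037 and 1541 normalised counts against 1966, 1738 and 1582 (0.53 ± 0.20, adjusted p = 0.135), and VCL, the actin-binding vinculin, gave 0.42 ± 0.16 (adjusted p = 0.144). Both were called without control replicate 3 (DSP 0.74, adjusted p = 0.00106; VCL 0.54, adjusted p = 0.0148). α-catenin (CTNNA1, -0.07) and N-cadherin (CDH2, 0.04) were level, and CTNND1, the gene of p120-catenin, gave 0.13. PPL, the plakin periplakin, had 1247, 1334 and 1072 against 1789, 1993 and 915, so the groups overlapped (0.37 ± 0.25, adjusted p = 0.571), and without siβ-catenin replicate 3 it was called (0.64, adjusted p = 0.0234).

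Genes of DNA replication were lower. Of 38 tested S-phase genes, 7 were called lower and 0 higher, against 0.837% of all genes in the lower direction. All 38 had a log2 fold change below 0, as did 48.9% of all genes tested, with a list median of -0.45. TYMS, which makes thymidylate for DNA synthesis, had 2579, 2752 and 2693 normalised counts in the controls and 1487, 1129 and 1689 after siβ-catenin, a fall of 0.89 ± 0.18 on the log2 scale (adjusted p = 0.000196). GINS1, a subunit of the GINS complex of the replicative helicase, had 565, 741 and 737 against 399, 353 and 340 (-0.90 ± 0.18, adjusted p = 0.000195). In both genes the lowest control exceeded the highest siβ-catenin library, and each was called without any single library. Both overlap others on the opposite strand (ENOSF1 and TYMSOS for TYMS, NINL for GINS1), so reads could be shared.

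The licensing factors CDC6 and ORC1, which load the helicase at origins, were lower too. CDC6 had 826, 962 and 1003 normalised counts against 591, 505 and 614 (-0.70 ± 0.17, adjusted p = 0.00335), and ORC1 had 314, 435 and 425 against 259, 190 and 257 (-0.73 ± 0.21, adjusted p = 0.0303). Cyclin E1 (CCNE1), which brings CDK2 into S phase, had 713, 581 and 780 against 449, 399 and 431 (-0.69 ± 0.18, adjusted p = 0.00866). RRM2, the small subunit of ribonucleotide reductase, was also called and is named after its values were seen. It had 3330, 4254 and 4654 against 2111, 1767 and 2813 (-0.87 ± 0.21, adjusted p = 0.00469). The groups were separate for all 4, but each gene lost its call in some fits on 5 libraries. Without siβ-catenin replicate 1 the adjusted p was 0.0835 for CDC6, 0.154 for ORC1, 0.114 for CCNE1 and 0.103 for RRM2. Without siβ-catenin replicate 2 it was 0.0572, 0.21, 0.0931 and 0.0677. Without control replicate 2 it was 0.107 for CDC6, 0.351 for ORC1 and 0.0981 for RRM2, and ORC1 also missed without siβ-catenin replicate 3 (0.0701) and control replicate 3 (0.0904).

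The number of S-phase calls moved with the setting. All 38 genes stayed below 0 with the replicate block, GC offsets, both, edgeR with the block and thinned counts. The same held in a model over the 12 BRCA2-deficient libraries. These fits all include the same 6 libraries, so they are not separate evidence of direction. Signs were not counted in the fits that leave out 1 library. With the replicate block 14 of 38 were called lower, with GC offsets 11, with both 15, and with edgeR and the block 5. Without 1 library it ran from 3 (without siβ-catenin replicate 1, and also without replicate 2) to 17 (without siβ-catenin replicate 3), with 4 without control replicate 2 and 12 without control replicate 1. MCM4, a helicase subunit, had 7375, 8329 and 9612 normalised counts against 6088, 5328 and 7047, with no overlap between the groups, and was not called (-0.45 ± 0.17, adjusted p = 0.156). Without control replicate 1 it was called (-0.55, adjusted p = 0.0343). In bulk RNA, fewer cells in S phase and less of each transcript per cell cannot be told apart.

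Many replication genes carry E2F sites near their starts, and the promoters of the 3 called members with a match are shown for that reason, with the letters TTTGGCGC, TTTCGCGC, TTTCCCGC or TTTGCCGC (either strand) in capitals. They are RefSeq sequences on GRCh38.p14, all from the + strand, at chr17:40287629-40287928 (CDC6), chr18:657403-657702 (TYMS) and chr20:25407423-25407722 (GINS1). The match began 8 bases into the transcript in CDC6, 39 before the start in TYMS and 6 into it in GINS1. A match was held by 3 of the 6 called members found in the table, and ORC1, CCNE1 and RRM2 held none. Such a match stood in 16 of the 32 S-phase promoters found in the table and in 3.33% of all 27305. It stood in 12 of 112 promoters of genes called lower and in 2 of 143 of genes called higher.
CDC6: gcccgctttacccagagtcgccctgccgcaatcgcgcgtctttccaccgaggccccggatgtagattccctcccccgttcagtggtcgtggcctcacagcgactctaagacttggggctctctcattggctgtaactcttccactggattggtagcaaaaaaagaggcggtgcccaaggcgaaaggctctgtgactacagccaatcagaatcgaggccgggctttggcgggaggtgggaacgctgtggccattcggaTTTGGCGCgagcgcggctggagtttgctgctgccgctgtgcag
TYMS: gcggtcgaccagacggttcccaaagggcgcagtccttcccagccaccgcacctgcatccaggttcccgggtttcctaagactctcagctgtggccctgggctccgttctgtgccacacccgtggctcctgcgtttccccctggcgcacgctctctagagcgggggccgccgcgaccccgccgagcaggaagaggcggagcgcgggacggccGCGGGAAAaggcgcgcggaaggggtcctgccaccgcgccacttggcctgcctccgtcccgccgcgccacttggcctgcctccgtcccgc
GINS1: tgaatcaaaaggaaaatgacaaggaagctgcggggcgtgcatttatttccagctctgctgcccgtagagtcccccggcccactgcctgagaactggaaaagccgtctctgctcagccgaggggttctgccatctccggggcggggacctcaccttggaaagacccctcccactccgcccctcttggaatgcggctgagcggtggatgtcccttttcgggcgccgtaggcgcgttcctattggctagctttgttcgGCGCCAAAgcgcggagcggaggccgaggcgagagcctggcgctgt

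Mitotic genes showed the same direction with fewer calls. Of 36 tested genes of G2/M, 3 were called lower and 0 higher, against 0.837% of all genes in the lower direction. All 36 had a log2 fold change below 0, against 48.9% of all genes, and the median was -0.46. HMMR, a spindle-associated hyaluronan receptor, had 1818, 2476 and 2554 normalised counts against 1305, 1178 and 1417 (-0.81 ± 0.18, adjusted p = 0.00148). CDK1, the mitotic kinase, had 1279, 1874 and 1745 against 824, 737 and 1124 (-0.86 ± 0.21, adjusted p = 0.00655), and the spindle motor KIF11 had 1491, 2356 and 2442 against 1249, 1266 and 1392 (-0.68 ± 0.20, adjusted p = 0.0386). The groups were separate for all 3, and HMMR overlaps the antisense HMMR-AS1. With the replicate block 12 of 36 were called, and UBE2C, the ubiquitin-conjugating partner of the anaphase-promoting complex, was one of them (-0.71, adjusted p = 0.00437, against 0.0597 without the block).

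These calls rested on few libraries. Without siβ-catenin replicate 1 or without control replicate 2, 0 of the 36 were called by DESeq2, with adjusted p of 0.0551 and 0.0777 for HMMR, 0.134 and 0.175 for CDK1 and 0.291 and 0.384 for KIF11. Without siβ-catenin replicate 3, and likewise without control replicate 1, 16 were called. UBE2C was called in both of those fits, at adjusted p = 0.000493 and 0.0468. CDK1 (0.0871) and KIF11 (0.176) also missed without siβ-catenin replicate 2, and KIF11 without siβ-catenin replicate 3 (0.104) and control replicate 3 (0.114).

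The promoters of HMMR, at chr5:163460382-163460681, and KIF11, at chr10:92592880-92593179 (RefSeq, GRCh38.p14, + strand), are shown because mitotic genes often carry a CHR element close to the start. The letters TTTGAA or TTCGAA, either strand, are in capitals. They stood in 21 of 29 G2/M promoters found in the table and in 16.6% of all promoters. TTTGAA is part of the TCF/LEF letters CTTTGAA, so the searches overlap, and 0 of the 29 held a TCF/LEF match.
HMMR: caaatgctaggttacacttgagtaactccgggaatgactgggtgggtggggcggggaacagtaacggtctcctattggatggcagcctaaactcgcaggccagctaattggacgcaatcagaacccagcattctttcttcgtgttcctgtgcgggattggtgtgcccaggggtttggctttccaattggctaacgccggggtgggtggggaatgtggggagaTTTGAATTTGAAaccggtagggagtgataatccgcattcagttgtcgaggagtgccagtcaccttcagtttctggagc
KIF11: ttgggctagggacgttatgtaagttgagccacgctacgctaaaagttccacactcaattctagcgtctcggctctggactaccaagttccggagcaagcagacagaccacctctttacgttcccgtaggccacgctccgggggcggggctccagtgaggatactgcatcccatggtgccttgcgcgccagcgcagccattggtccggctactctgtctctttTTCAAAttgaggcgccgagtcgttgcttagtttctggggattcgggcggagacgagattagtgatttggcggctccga

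**Figure D5:**
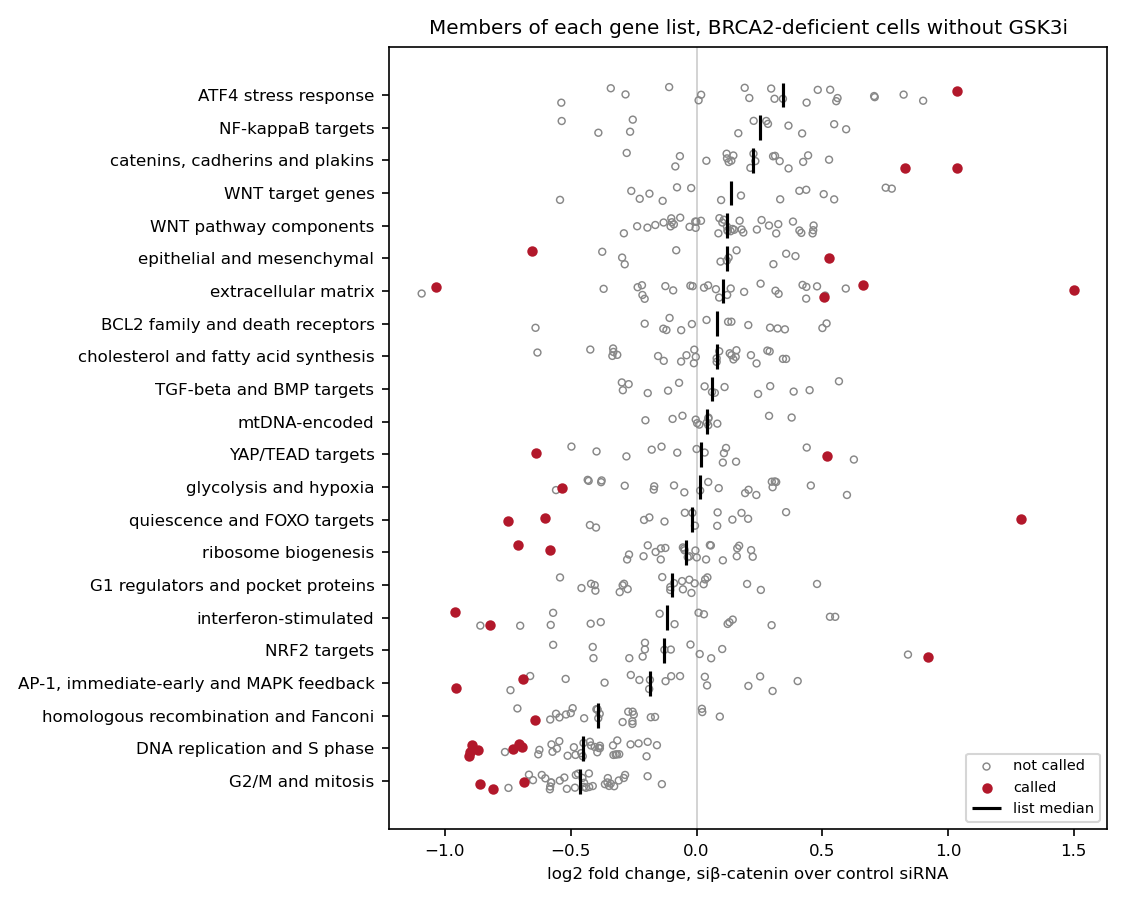
Log2 fold change of siβ-catenin over control siRNA (x axis) for every tested member of 22 gene lists (y axis, ordered by median) in BRCA2-deficient cells without GSK3i. Filled red points were called, open points were not, and black bars are list medians. All members of the S-phase and G2/M lists lie below 0.

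Cyclin E1, called lower above, was counted with the S-phase genes. Of 24 other tested G1 cyclins, CDKs, CDK inhibitors, E2F factors and pocket proteins, 0 were called by DESeq2. Their median log2 fold change was -0.10, and with the replicate block 1 was called lower. E2F5 had an adjusted p of 0.0388 but a log2 fold change of -0.46 ± 0.14, short of 0.5. It had 1655, 1712 and 1655 normalised counts in the controls and 1318, 1196 and 1135 after siβ-catenin. CDKN1A, the gene of p21, was not called (-0.29 ± 0.17, adjusted p = 0.457), and neither was RBL1, the gene of p107 (-0.40 ± 0.22, adjusted p = 0.416), except without control replicate 1 (-0.60, adjusted p = 0.0308).

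Among 25 tested genes of homologous recombination and the Fanconi pathway, 1 was called lower, against 0.837% of all genes, 22 were below 0, against 48.9%, and the median was -0.39. The called gene was FANCG, a subunit of the Fanconi core complex, with 1348, 1288 and 1324 normalised counts against 839, 710 and 978 (-0.64 ± 0.17, adjusted p = 0.0105). It lost its call without siβ-catenin replicate 1 (0.181), siβ-catenin replicate 2 (0.102) or control replicate 2 (0.123). BRCA1 had 447, 589 and 826 against 364, 407 and 504, so the groups overlapped (-0.54 ± 0.24, adjusted p = 0.258). FANCD2 gave -0.52 ± 0.24 (adjusted p = 0.298). Without control replicate 1 both were called (BRCA1 -0.74, adjusted p = 0.0235; FANCD2 -0.70, adjusted p = 0.0469).

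The 15 genes with the largest increases, among called genes with a mean of at least 100 normalised counts and separate groups, included receptors and matrix proteins. NOTCH1, a receptor for DLL and JAG ligands, had 50, 51 and 68 normalised counts against 151, 109 and 253 (1.61 ± 0.33, adjusted p = 0.000346). FGFR3, a fibroblast growth factor receptor, had 176, 160 and 216 against 429, 398 and 692 (1.46 ± 0.25, adjusted p = 5.84e-06). Both were low in all controls and were called without any single library.

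Collagen I (COL1A1) had 124, 103 and 137 normalised counts against 312, 226 and 490, a rise of 1.502 ± 0.28 on the log2 scale (adjusted p = 8.91e-05). MYL9, a regulatory light chain of non-muscle and smooth muscle myosin, had 1156, 901 and 938 against 2864, 2132 and 2752 (1.38 ± 0.18, adjusted p = 6.07e-11). It had the lowest adjusted p of all 15. GBP1, an interferon-inducible GTPase, had 174, 183 and 265 against 482, 414 and 717 (1.38 ± 0.26, adjusted p = 6.04e-05).

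The other 10 rose by 1.21 to 1.75 on the log2 scale. They were TNXB (tenascin-X of the matrix), GPR153 (an orphan receptor), CPLX1 (complexin, which binds SNARE complexes), SLC17A7 (a vesicular glutamate transporter), PKDCC (a secreted kinase), SERINC2, ULBP1 (a ligand of the NKG2D receptor), COL14A1, UAP1L1 and BCYRN1. BCYRN1 is a short non-coding RNA with many genomic copies and TNXB has a pseudogene copy and overlaps CYP21A2, so both are uncertain. PKDCC, SERINC2, COL14A1, ULBP1 and BCYRN1 each lost their call in at least 1 of the 6 fits on 5 libraries, with adjusted p up to 0.186, 0.17, 0.0709, 0.0519 and 0.208. With GC offsets all 15 were still called, at 1.05 to 1.75.

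Among the 15 largest decreases the siRNA target CTNNB1 came first. PTX3, a secreted pentraxin of innate immunity, had 565, 569 and 717 normalised counts against 281, 229 and 252 (-1.28 ± 0.18, adjusted p = 1.8e-08). MLLT11 had 422, 510 and 456 against 171, 228 and 133 (-1.38 ± 0.22, adjusted p = 5.82e-07). SFT2D1, a Golgi membrane protein, had 1667, 1498 and 1571 against 836, 831 and 638 (-1.04 ± 0.16, adjusted p = 3.7e-07). All 3 were called without any single library. MLLT11 and PTX3 overlap CDC42SE1 and VEPH1 on the opposite strand.

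ETV1, an ETS transcription factor, had 684, 884 and 955 normalised counts against 491, 453 and 220 (-1.12 ± 0.27, adjusted p = 0.00469), and missed without control replicate 2 (0.0939). DUSP6, the phosphatase that restrains ERK, had 487, 1125 and 713 against 314, 484 and 393 (-0.96 ± 0.28, adjusted p = 0.0314), and missed without siβ-catenin replicate 1 (0.29), siβ-catenin replicate 3 (0.166) and control replicate 2 (0.49). PLOD2, a lysyl hydroxylase of collagen, had 852, 1320 and 1135 against 571, 705 and 334 (-1.04 ± 0.26, adjusted p = 0.00773). It missed without siβ-catenin replicates 1 (0.0609) or 3 (0.0535) and without control replicate 2 (0.194).

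The other 8 fell by 0.96 to 1.16 on the log2 scale. They were MPP4, ACOX2 (a peroxisomal acyl-CoA oxidase), TMEM158, MND1 (of meiotic recombination), MRPS23 (of the mitochondrial ribosome), CTSV (cathepsin V), OASL (interferon-induced) and RPS3AP26, a processed pseudogene whose reads may come from its parent. MPP4, ACOX2, TMEM158, MRPS23 and CTSV were called without any single library. MND1, OASL and RPS3AP26 were not, with adjusted p up to 0.0858, 0.281 and 0.142.

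In the other lists between 0 and 4 genes were called, to be read against 1.17% of all genes called higher and 0.837% lower. Of 30 tested matrix genes 3 rose and 1 fell. Besides COL1A1, the rises were LAMC1, a laminin chain with 3152, 3749 and 4433 normalised counts against 5781, 5854 and 6279 (0.66 ± 0.17, adjusted p = 0.00866), and COL6A1 (0.51 ± 0.14, adjusted p = 0.0281). The fall was PLOD2. Each of LAMC1 and COL6A1 lost its call without siβ-catenin replicate 1 (0.106 and 0.33), 2 (0.0602 and 0.0578) or 3 (0.0889 and 0.157) and without control replicate 2 (0.185 and 0.424), and COL6A1 was not called with GC offsets (0.36).

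In the ATF4 stress response 1 of 21 tested genes rose, NUPR1, with 207, 129 and 102 normalised counts against 326, 358 and 209 (1.04 ± 0.29, adjusted p = 0.0201), and the list median was 0.34. With the replicate block 6 of 21 were called higher, among them the amino acid transporter subunit SLC7A5 (0.66, adjusted p = 0.00333) and the glutathione-degrading CHAC1 (0.84, adjusted p = 0.0148). Without the block both were called when siβ-catenin replicate 2 was left out (adjusted p = 0.0192 and 0.0421), and SLC7A5 also without control replicate 3 (0.0395). NUPR1 missed without siβ-catenin replicates 1 (0.209) or 2 (0.204) and without control replicates 2 (0.269) or 3 (0.0888). With counts thinned to the smallest library 0 of the 21 genes were called. HMOX1, haem oxygenase and the called gene among 15 NRF2 targets, had 1279, 1058 and 1352 against 2022, 1781 and 3159 (0.92 ± 0.23, adjusted p = 0.006), and missed without siβ-catenin replicate 3 (0.0545) or control replicate 2 (0.175).

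Of 19 tested immediate-early and MAPK feedback genes 2 fell, DUSP6 and PHLDA1 (-0.69 ± 0.18, adjusted p = 0.00829), and the median was -0.19. ETV4 and ETV5 gave -0.74 ± 0.24 and -0.52 ± 0.17, with adjusted p of 0.0628 and 0.0609, and ETV5 was called with the block (-0.52, adjusted p = 0.0349) and without control replicate 1 (-0.63, adjusted p = 0.00583), as ETV4 was without control replicate 3 (-0.85, adjusted p = 0.0394). Of 18 interferon-stimulated genes 2 fell, OASL and HERC5 (-0.82 ± 0.22, adjusted p = 0.018). IFIT1 joined them with the block (-0.93, adjusted p = 0.00433), without siβ-catenin replicate 2 (0.00464) and without control replicate 1 (0.0327). In that list 10 of the 18 were below 0, against 48.9% of all genes, and the median was -0.12. GBP1, also interferon-inducible but not in the list, rose as given above. PHLDA1, HERC5 and OASL all missed without siβ-catenin replicate 1 (0.147, 0.205 and 0.272), siβ-catenin replicate 3 (0.0768, 0.152 and 0.207) or control replicate 2 (0.224, 0.252 and 0.281), and HERC5 and OASL also without control replicate 3 (0.0532 and 0.0965).

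Of 16 YAP/TEAD targets, CCN2 fell (4170, 3722 and 3773 normalised counts against 2764, 2445 and 2266; -0.64 ± 0.14, adjusted p = 0.00163) and the kinase LATS2 rose (0.52 ± 0.16, adjusted p = 0.0446). CCN2 was called without any single library, and LATS2 was not called in 5 of the 6 such fits. In 1 model over the 12 BRCA2-deficient libraries neither was called. Of 13 epithelial and mesenchymal genes CLDN1, a tight-junction claudin, rose (0.53 ± 0.15, adjusted p = 0.031) and vimentin (VIM) fell, with 35307, 30623 and 26847 against 21879, 19617 and 17326 (-0.65 ± 0.16, adjusted p = 0.00507). VIM missed without siβ-catenin replicate 3 (0.0562) or control replicate 2 (0.103), and CLDN1 in 5 of 6 fits. The model over 12 BRCA2-deficient libraries did not call VIM.

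Of 26 ribosome biogenesis genes GAR1 (-0.71 ± 0.16, adjusted p = 0.00179) and NPM1 (-0.58 ± 0.15, adjusted p = 0.0105) fell, both lost without siβ-catenin replicate 1 (0.0577 and 0.0988) or control replicate 2 (0.112 and 0.193), NPM1 also without siβ-catenin replicate 3 (0.0706) and with GC offsets (0.0629). Of 17 quiescence and FOXO targets ARRDC3 (-0.75 ± 0.16, adjusted p = 0.00127) and BTG1 (-0.60 ± 0.17, adjusted p = 0.0257) fell, and BTG2, with 21, 27 and 33 against 59, 48 and 92, rose (1.29 ± 0.37, adjusted p = 0.0296). ARRDC3, BTG1 and BTG2 missed in 2, 5 and 4 of the 6 fits on 5 libraries, with adjusted p up to 0.0873, 0.177 and 0.334. BTG2 is named as the remaining called member, after its values were seen. Of 23 glycolysis genes LDHA fell (-0.53 ± 0.16, adjusted p = 0.0313) and kept its call only without control replicate 3 (0.0055) among the 6 fits on 5 libraries. DESeq2 called 0 of 27 genes of cholesterol and fatty acid synthesis, 0 of 12 NF-kappaB targets, 0 of 15 TGF-beta and BMP targets, 0 of 16 BCL2-family and death receptor genes and 0 of 13 genes of mitochondrial DNA, with list medians between 0.04 and 0.25.

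The response to siβ-catenin was set beside that of BRCA2-deficient cells given GSK3i, which share no library with it. Same-numbered libraries with and without GSK3i still deviated together. For numbers 1, 2 and 3 the correlations were 0.720, 0.278 and 0.714 with control siRNA. With siβ-catenin they were 0.573, 0.479 and 0.439. The siRNA was also the same, so errors or off-target effects common to both may add to the overlap, which was not tested. With GSK3i 506 genes were called higher (2.97%) and 433 lower (2.54%). Of the genes called without GSK3i and tested in both, 100 of 199 higher genes and 59 of 145 lower genes were called the same way with GSK3i, which is 50.3% and 40.7% of them, and 20.2% and 13.7% of the genes called with GSK3i. Across 16545 genes the Pearson correlation of the log2 fold changes was 0.54, given as a description since genes are not independent. On the log2 scale MYL9 rose by 1.32 with GSK3i, COL1A1 by 1.79 and FGFR3 by 1.47, and the S-phase list had a median of -0.42 with 8 of 38 called lower.

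The interaction of siRNA and GSK3i called 81 of 18117 genes. Outside the WNT targets, DSC2 was one of them, with a difference of -1.001 (adjusted p = 0.00291). It stood at 451 to 554 normalised counts with GSK3i and control siRNA and at 483 to 551 with GSK3i and siβ-catenin, so with GSK3i it was already near the level that siβ-catenin gave without it. The call was lost without replicate 2 of the GSK3i controls (adjusted p = 0.0511). TFPI, an inhibitor of the clotting cascade, fell without GSK3i (1384, 1470 and 1540 against 1019, 976 and 914; -0.59 ± 0.14, adjusted p = 0.00387) and gave 0.22 with GSK3i, a difference of 0.81 (adjusted p = 8.31e-05). The fall was not called without siβ-catenin replicate 1 (0.106) or control replicate 2 (0.117), whereas the difference was called in all 12 fits that leave out 1 library. SLC7A5 gave 0.71 ± 0.22 without and -0.47 with GSK3i, a difference of -1.17 (adjusted p = 0.0109), which was lost without control replicate 1 (0.0532), control replicate 2 (0.0959) or replicate 2 of GSK3i with siβ-catenin (0.0709).

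BRCA2-proficient cells (no DOX) without GSK3i gave a different set of values, from 2 libraries a group. There 181 genes were higher (1.08%) and 352 lower (2.10%). With the replicate block 193 genes were called in these cells, and with edgeR 1. The overlap given next therefore rests on calls that depend on the setting. CTNNB1 fell by 2.00 on the log2 scale, close to the 2.12 in BRCA2-deficient cells. Of the 196 higher and 145 lower genes called in BRCA2-deficient cells and tested in both, 11 and 19 were called the same way, which is 5.61% and 13.1% of them and 6.08% and 5.40% of the genes called in BRCA2-proficient cells. The correlation of log2 fold changes across 16496 genes was 0.12, with no library in common.

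The interaction of siRNA and BRCA2 status called 442 of 17707 genes (2.50%), but 4 without replicate 3 of the BRCA2-proficient controls and 0 with edgeR, where 2621 genes had an unadjusted p under 0.05. Of the S-phase genes 8 of 38 were called with a more negative response in BRCA2-deficient cells, among them CDC6 (difference -1.26, adjusted p = 0.000244), GINS1 (-1.21, adjusted p = 0.00129) and TYMS (-0.98, adjusted p = 0.0328). In BRCA2-proficient cells the log2 fold changes of these 3 were 0.54, 0.29 and 0.07, none of them called. JUP gave -0.86 there and was not called (adjusted p = 0.157), a difference of 1.68 (adjusted p = 0.000568), and PPL, which fell by 1.65 in BRCA2-proficient cells, a difference of 2.00 (adjusted p = 0.00123). Without replicate 3 of the BRCA2-proficient controls the adjusted p of the difference was 0.076 for CDC6, 0.141 for GINS1, 0.0847 for JUP, 0.0737 for PPL and 0.473 for TYMS, and TYMS was also lost in 5 of the other 9 fits on 9 libraries. With that library left out, its group holds 1 library, whose spread is assumed to be that of the others. DSC2 rose in BRCA2-proficient cells as well, by 0.80 ± 0.24 on the log2 scale (adjusted p = 0.0306).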

How the data were processed

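RNA was read from poly(A)-selected, strand-specific paired-end libraries of H1299 cells. The authors deposited raw read counts per Ensembl gene, with replicates kept apart. The submitters' processing notes name HISAT2 2.0.4, SAMtools 1.4, Picard 1.9.2, featureCounts 1.5.0 and build hg19, and duplicates were removed. The strand setting of the counting and the Ensembl release are not given in the sources used here. Gene symbols and GRCh37 positions came from a GENCODE annotation lifted to that build.

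Groups were taken from the labels. The study describes its RNA-seq replicates as independent experiments, and the labels add nothing on how they were made. Genes with fewer than 10 counts in more than 3 libraries of a fit were dropped. In the BRCA2-proficient comparison the limit was more than 2 of the 4 libraries. For interactions, genes needed 10 counts in at least 3 libraries. DESeq2 1.42.0 in R 4.3.3, the tool of the study's methods, gave log2 fold changes with SE and Benjamini-Hochberg adjusted p-values. Its default filters left 2020 of the 17324 genes of the main comparison without an adjusted p. Those genes could not be called but are counted among the genes tested. A call needed an adjusted p below 0.05 and a log2 fold change beyond 0.5 either way. Normalised counts were obtained by dividing by the size factors of DESeq2. Interactions of siRNA with GSK3i (12 libraries) and with BRCA2 status (10 libraries) were fitted the same way.

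Same-numbered libraries deviated together in these groups (correlations 0.493, 0.352 and 0.203 for numbers 1, 2 and 3 over 13152 genes). Libraries of different number gave -0.534 to 0.197, the highest for control 3 with siβ-catenin 2, so the pair of number 3 stood out little. In BRCA2-proficient cells without GSK3i same-numbered libraries gave -0.0914. With 2 libraries a group the deviations from the mean mirror each other, so that value cannot be compared with those above. The replicate number was read as a pairing, taken from the titles.

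Alternatives were edgeR 4.0.16 (quasi-likelihood), a replicate block, TMM factors, other filters, a test against a log2 fold change of 0.5, 1 model over 12 libraries and leaving out each library. Thinned counts, GC offsets, GC offsets with the block and edgeR with the block were added after seeing the data. The fitting steps were tested on counts simulated without a replicate pairing or a GC trend, so that test covers neither. The members and gene lists were chosen with earlier results of these data known. Named genes were CTNNB1, BRCA2 and the GSK3 genes, the 15 largest called changes each way (mean of at least 100 normalised counts, separate groups), up to 4 members of lowest adjusted p per list (mean of at least 50), 20 genes set by name and the 4 interaction genes of lowest adjusted p each way. Exceptions are stated where they are named. Some genes are counted in the lists but not reported here. A table of the layout of the libraries was not used.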

Additional observations from a re-analysis of the deposited data

Results flagged for a closer look

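The response to siβ-catenin differed between conditions for 36 pairs of a named gene and a condition, each by an adjusted p below 0.05 and a difference beyond 0.5 for the interaction term in DESeq2. All values are differences of log2 fold changes.

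With GSK3i against without it, in BRCA2-deficient cells, the response was more negative for the WNT targets AXIN2 (-3.6454), LEF1 (-2.6186), SP5 (-2.1350), SOX4 (-1.7410) and TCF7 (-1.5676). It was also more negative for the connexin GJB2 (-2.0182), SLC7A5 (-1.1743), PALD1 (-1.1674) and DSC2 (-1.0015). It was more positive for the deiodinase DIO2 (1.6350), the serotonin receptor HTR1D (1.3237), LINC00707 (1.1600) and TFPI (0.8090). edgeR called 11 genes in this interaction, among them the 5 WNT targets and PALD1.

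In BRCA2-deficient against BRCA2-proficient cells, without GSK3i, the response was more positive for ZNF467 (2.2819), PDGFRA (2.1628), FGFR3 (2.0292), ELFN1 (2.0124), PPL (2.0033), JUP (1.6763), EPS8L2 (1.6427), SP5 (1.4707), ATG2A (1.4382), COL6A1 (0.8829), LATS2 (0.8696) and LRP5 (0.6623). It was more negative for MND1 (-1.3881), CDC6 (-1.2566), GINS1 (-1.2052), MRPS23 (-1.1284) and TYMS (-0.9762). The ribosome biogenesis genes BRIX1 (-1.1168), NOP56 (-0.8195), NPM1 (-0.7948) and NOP58 (-0.6542) went the same way, as did SSR3 (-1.0791) and the chaperonin HSPD1 (-0.9798). In BRCA2-deficient cells 2 of the 26 tested genes of the ribosome biogenesis list were called lower, against 0.837% of all genes (list median -0.04). In BRCA2-proficient cells 12 of 26 were called higher, against 1.08% of all genes (list median 0.67). edgeR called 0 genes in this interaction, with 2621 at an unadjusted p under 0.05, and DESeq2 called 4 without replicate 3 of the BRCA2-proficient controls. The BRCA2-proficient groups held 2 libraries each. In the 10 fits that leave out 1 library, some with 1 library left in a group, ATG2A lost its call in 0. ZNF467, ELFN1, PPL, JUP, EPS8L2, MND1, CDC6, GINS1, BRIX1, SSR3 and HSPD1 lost it in 1. The other genes lost it in 4 to 9, with 8 for LATS2, NPM1 and NOP58 and 9 for LRP5. LRP5 and NOP58 were also not called with the replicate block (adjusted p = 0.0671 and 0.0513).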

How the results depend on the processing

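Of the 347 calls of siβ-catenin against control siRNA in BRCA2-deficient cells without GSK3i, edgeR made 0 (2311 genes at an unadjusted p under 0.05), edgeR with the replicate block called 181 genes, the replicate block 534, GC offsets with the block 537 and the test against a log2 fold change of 0.5 called 4. Leaving out 1 library gave 77 to 536. The share of calls that were higher was 58.2% and fell to 46.2% with GC offsets and the block. With GSK3i, 939 calls became 267 with edgeR and 366 to 1041 without 1 library. In BRCA2-proficient cells, 533 became 1 with edgeR (2721 at an unadjusted p under 0.05), 193 with the replicate block and 20 to 2026 without 1 library. The GSK3i interaction's 81 became 11 with edgeR, 332 with the replicate block and 47 to 111 without 1 library. The BRCA2 interaction's 442 became 0 with edgeR (2621 at an unadjusted p under 0.05) and 4 to 1256 without 1 library, the lowest without replicate 3 of the BRCA2-proficient controls and the highest without replicate 3 of BRCA2-proficient siβ-catenin. The cause was not tested. Of 64 named genes called, the block lost 0 and added 10. GC offsets lost 4, thinned counts 5, the model over 12 libraries 11 and edgeR all 64, and 0 reversed. TMM factors and the other filters kept each count within 1.5 times. Depth differed between the groups, with 18.9 to 21.6 M counts in the controls and 25.7 to 27.0 M after siβ-catenin.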

Other observations

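Further genes were grouped after their values were seen, so the groups are descriptions without a test of their own, and members that changed were what drew them together. Over all genes tested, 1.17% were called higher and 0.837% lower. Of 8 tested Notch receptors and ligands 4 were called higher after siβ-catenin. NOTCH3 had 771, 812 and 789 normalised counts in the controls and 1471, 1491 and 1406 after siβ-catenin, a narrow spread in both groups and a log2 fold change of 0.88 ± 0.14. JAG2 (0.92) and DLL1 (0.81) joined NOTCH1, but lost their calls in 3 and 5 of the 6 fits that leave out 1 library, whereas NOTCH3 and NOTCH1 were called in all 6. Of 8 genes of the CELSR, FAT and DCHS families, which act in planar cell polarity, CELSR1 (0.78), CELSR2 (0.71) and DCHS1 (0.81) were called higher. CELSR1 was called in all 6 fits.

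Of 15 actin and actin-binding genes, 7 were called higher and 1 lower. The 2 cytoplasmic actins moved apart. ACTB had 47560, 43908 and 44567 normalised counts in the controls and 34354, 27860 and 27077 after siβ-catenin (-0.60 ± 0.15), and ACTG1 had 44732, 42646 and 43559 against 63804, 55107 and 67622 (0.51 ± 0.14). Each lost its call in 3 of the 6 fits. Both genes have processed pseudogenes that could share their reads. CNN2 (0.85), CALD1 (0.66), TPM4 (0.65), FLNA (0.61) and WDR1 (0.54) were called higher beside MYL9, and FLNA was not called with GC offsets.

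Of 10 outer kinetochore genes, 3 were called lower and all 10 were below 0. NUF2 had 626, 850 and 891 normalised counts against 423, 376 and 426 (-0.95 ± 0.19) and was called in all 6 fits. Of the 4 subunits of DNA polymerase alpha and primase, PRIM1 (-0.86), POLA2 (-0.68) and PRIM2 (-0.54) were called lower, and each lost its call in at least 2 of the 6. Of 10 high mobility group genes 4 were called lower, with HMGN2 (-0.80) called in all 6 fits and HMGA1 (-0.65), HMGA2 (-0.68) and HMGB2 (-0.57) not.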
